A study of Mus musculus with 4 samples.

Results

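The genes described here are the GATA transcription factors Gata1 to Gata6 and their zinc finger cofactors Zfpm1 and Zfpm2, taken as every array target whose annotated gene name is one of these 8 symbols. The array carried 13 such targets, of 44170 in all, and they covered 7 genes, all 6 GATA genes and Zfpm2, of 24171 genes with a name. Zfpm1 was not analysed here. Expression was measured on 4 single-colour arrays of total RNA from mouse neuroblastoma Neuro2a (N2a) cells, 2 arrays after transfection of a scramble siRNA and 2 after an siRNA against Men1. Men1 encodes menin, a scaffold of the KMT2A and KMT2B histone H3 lysine 4 methyltransferase complexes, and the design asks which transcripts differ when it is knocked down. The labels give no time after transfection, no siRNA sequence and no cell clone, and they do not say whether the 2 arrays of a group came from separate cultures, so p-values measure a spread between arrays that may be technical. With 2 arrays against 2, an exact permutation test cannot reach a two-sided p under 0.33, and every test is therefore limma's, fitted over all genes.

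GATA factors bind DNA at GATA sequences through a pair of zinc fingers. Gata1, Gata2 and Gata3 are best known from blood, the sympathoadrenal lineage and parts of the brain and urogenital tract, and Gata4, Gata5 and Gata6 from heart, gonad, gut and other endoderm. The Zfpm proteins, also called friends of GATA, do not need to bind DNA themselves: they attach to the amino-terminal finger of a GATA factor and bring in the NuRD and CtBP corepressors. In neuroblastoma, GATA2 and GATA3 belong to the set of transcription factors that define the sympathoadrenal identity of the tumour cell.

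The starts of Gata2 and Gata3 are shown because these are the family genes with the lowest log2 changes with Men1 siRNA, and because the KMT2 proteins that menin joins carry a CXXC domain that binds unmethylated CpG. The sequences are RefSeq promoters on GRCm38.p6, from 250 bases before a transcription start to 50 after it, on the strand of the gene, and capitals mark each CpG. Gata2 has both a distal and a proximal start in that table, at chr6:88193641-88193940 and chr6:88198414-88198713 on the plus strand, and Gata3 has a start at chr2:9878551-9878850 on the minus strand.
Gata2 distal: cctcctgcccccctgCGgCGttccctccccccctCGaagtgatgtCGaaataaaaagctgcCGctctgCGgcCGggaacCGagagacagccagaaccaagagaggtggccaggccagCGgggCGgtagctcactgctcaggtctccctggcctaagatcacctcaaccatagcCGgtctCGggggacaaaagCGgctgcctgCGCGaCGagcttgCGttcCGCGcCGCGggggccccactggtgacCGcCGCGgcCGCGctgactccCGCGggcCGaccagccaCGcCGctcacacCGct
Gata2 proximal: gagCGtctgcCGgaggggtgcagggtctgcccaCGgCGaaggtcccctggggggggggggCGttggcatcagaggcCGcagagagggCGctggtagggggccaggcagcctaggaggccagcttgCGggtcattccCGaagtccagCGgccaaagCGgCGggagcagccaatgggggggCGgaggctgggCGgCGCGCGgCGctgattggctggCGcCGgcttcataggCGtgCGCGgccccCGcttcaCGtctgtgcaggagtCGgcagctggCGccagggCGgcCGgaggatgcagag
Gata3: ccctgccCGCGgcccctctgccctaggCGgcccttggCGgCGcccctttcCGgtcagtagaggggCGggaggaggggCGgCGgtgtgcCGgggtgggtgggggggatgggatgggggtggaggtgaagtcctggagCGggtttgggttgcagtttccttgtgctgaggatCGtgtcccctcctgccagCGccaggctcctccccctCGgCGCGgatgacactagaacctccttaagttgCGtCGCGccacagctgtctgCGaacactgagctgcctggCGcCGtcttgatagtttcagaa
The windows held 32, 29 and 22 CpGs in that order, against a median of 7 over 32851 promoters of the same length, and 91.4%, 88.3% and 78.5% of all promoters held as many or fewer. They were searched on both strands for the 6-letter sequences that GATA factors favour: AGATAA, the variant AGATAG, the variant TGATAA, or the variant TGATAG. The Gata3 window had a single match, TGATAG on the plus strand of the gene at bases 287 to 292 of the window, which begins at base 37 of the transcript. Neither Gata2 window had a match, and 29.8% of all promoters held at least 1. Promoters matched 5 of the 8 symbols, and Gata4, Gata6 and Zfpm2 had no entry. Of the measured family genes with a promoter not shown, Gata5 held 26 CpGs in its window, more than Gata3, and Gata1 held 4. Any link of CpG content to the changes was not tested.

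The targeted gene and the labels were checked first. Men1 read 6985 and 6222 in scramble siRNA cells and 2764 and 4109 in Men1 siRNA cells at its brighter target, 0.511 times the scramble level, without passing the threshold (limma adjusted p = 0.314), and 3843 and 3824 against 2989 and 3802 at its other target. Array medians lay between 145.9 and 151.2, and the random control probes between 42.8 and 52.3. Values under 100 are called not well above background, since the authors' own table of values keeps exactly the targets that reach 100 on all 4 arrays, and 40.2% to 41.0% of targets lay under that level on each array. The neuronal tubulin gene Tubb3 read 34397 to 40661 over the 4 arrays, whereas tyrosine hydroxylase, Th, which noradrenergic cells need, read between 95 and 142.

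Of the 7 family genes, 1 passed the threshold of an adjusted p under 0.05 in limma, Gata2, which fell, against 0.389% of all genes called in either direction and 0.352% called lower. Gata2 lay far above background on the scramble siRNA arrays and at it on the Men1 siRNA arrays, and none of the other 6 genes passed. Gata3 and Gata5 were lower on both Men1 siRNA arrays than on both scramble siRNA arrays at 1 of their 2 targets each, without passing. Gata1, Gata6 and Zfpm2 lay under 100 on all 4 arrays at every target, and Gata4 reached it on a single array. The groups did not overlap for 4 of the 7 genes, where 47.5% of all genes had groups that did not overlap, so that share is near the background. By target, 6 of 13 did not overlap, beside 46.6% of all targets, and 7 of 13 lay under 100 on every array, beside 25.4% of all targets. All 4 arrays were under 100 at every target for 3 of the 7 genes, where 5070 of the 24171 genes were under 100 at the brightest target. The median log2 change of the 7 genes was −0.38, beside 0.06 over all genes. That median is the value of Gata1, which was not well above background on any array, so it describes no shift of the family.

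**Figure D1:**
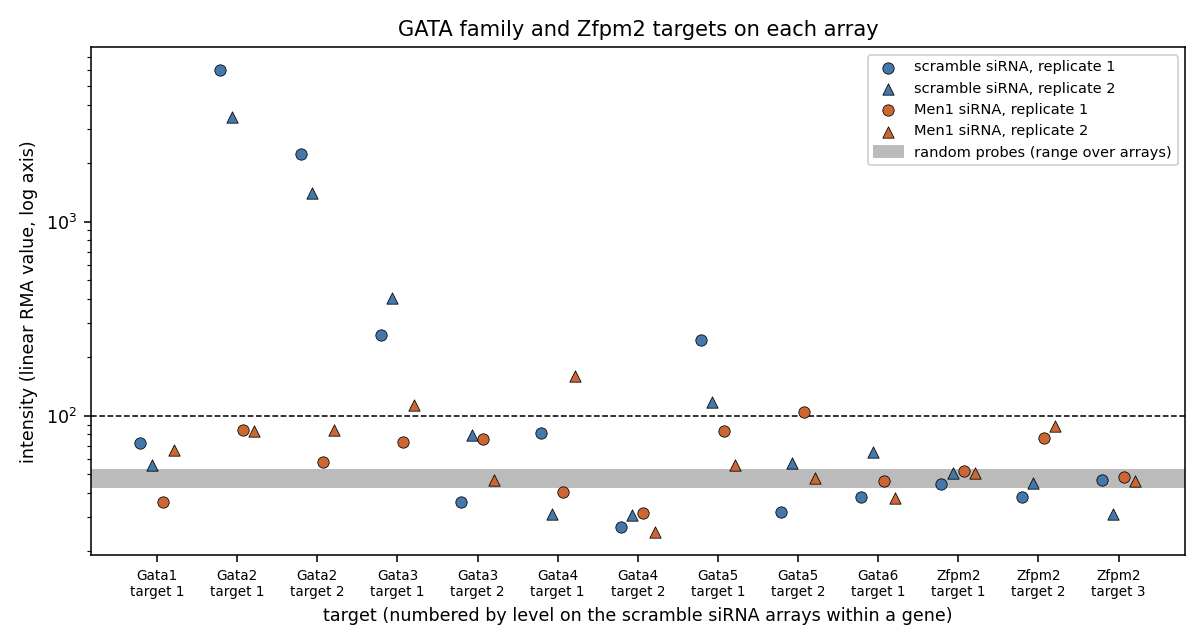
Intensity of each of the 13 targets (horizontal axis) on the 4 arrays, on a log axis, with scramble siRNA arrays in blue, Men1 siRNA arrays in orange, circles for replicate 1, triangles for replicate 2, the level of 100 dashed and the range of the random probes, 42.8 to 52.3, in grey. Both Gata2 targets stand between 1395 and 6002 on the scramble siRNA arrays and under 100 on the Men1 siRNA arrays, and 7 of the 13 targets lie under 100 throughout.

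Gata2 encodes a factor of blood stem and progenitor cells, mast cells, endothelium, sympathetic neurons and uterus. Its brighter target (gene ID 14461, chr6:88148753-88156228 on MM9) read 6002 and 3452 in scramble siRNA cells and 83.9 and 83.5 in Men1 siRNA cells. Both Men1 siRNA arrays were therefore not well above background, and Gata2 was at least 45.5-fold lower there. The fit gave a log2 change of −5.77 ± 0.38 (SE, with n = 2 in each group; limma adjusted p = 0.0281), which placed Gata2 8th of 24171 genes by p and 7th from the lowest by log2 change.

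The second Gata2 target spans the whole annotated gene (chr6:88143884-88157023 on MM9), from a start farther upstream than that of the first. It read 2216 and 1395 in scramble siRNA cells and 57.6 and 84 in Men1 siRNA cells, at least 17.6-fold lower. When every target was fitted as a feature of its own, the log2 change was −4.66 ± 0.40 (limma adjusted p = 0.034), with −5.77 ± 0.39 at the first target (adjusted p = 0.0254). Thus 2 of the 13 family targets passed, both of Gata2, where 0.34% of all targets did. Where the probes of each target lie within its transcript was not used here, so the distal and proximal starts cannot be told apart in these values.

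A gene that reads at least 100 on both scramble siRNA arrays and under 100 on both Men1 siRNA arrays was uncommon: 458 of 24171 genes, or 1.89%, had that pattern. Without 1 array at a time, which leaves a group with a single array, no gene passed in limma and Gata2 had log2 changes from −5.37 (without scramble siRNA replicate 1, adjusted p = 0.256) to −6.16 (without scramble siRNA replicate 2, adjusted p = 0.137). The call of Gata2 was lost with values under 100 set to 100 (log2 change −5.51, adjusted p = 0.138).

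The 5 named genes whose log2 values lay nearest to those of Gata2, by Euclidean distance over the 4 arrays and thus by level as well as pattern, were Msx1, Slc39a4, Plekhs1, Sox17 and Hoxa10. Their distances ran from 0.46 to 1.07 log2 units. Msx1, a homeobox gene of developing limb, face and uterus, read 5863 and 2754 in scramble siRNA cells and 74.8 and 102 in Men1 siRNA cells. Sox17, a factor of endoderm, endothelium and uterine epithelium, read 5580 and 2665 against 142 and 110. Hoxa10, which patterns the uterus, read 4170 and 3922 against 130 and 133. Slc39a4 read 3783 and 3262 against 63.3 and 79.9, and Plekhs1 read 4988 and 3225 against 49.5 and 94.9. All 5 were far above background on both scramble siRNA arrays and near or under 100 on both Men1 siRNA arrays. They were picked for nearness to Gata2, so this likeness is built in. Their limma adjusted p-values ran from 0.0275 to 0.0347.

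Markers of other cell types, in lists chosen with earlier results of these data known, are given beside this result. The share of all genes called lower was 0.352%. Of 12 epithelial markers 5 passed, all lower, and all 12 were negative in log2 change. Their summed level was 21899 to 35458 with scramble siRNA and 1556 to 2664 with Men1 siRNA. Of 13 urogenital markers 3 passed, all lower (Hoxa10, Hoxa11 and Msx1), while 11 were negative and 2 positive. Their sums were 13147 to 21058 against 2026 to 2204, and Upk3a lay under 100 on all 4 arrays. Of 11 endothelial markers Emcn alone passed, and all 11 were negative. The sums were 11973 to 15147 against 3519 to 3937, with every marker above 100 on at least 1 array. Of 13 fibroblast markers 4 passed, all lower, and all 13 were negative, with sums of 59883 to 63737 against 9881 to 10335. Their part in the result for Gata2 was not tested, and in RNA from a whole dish fewer cells of a type cannot be told apart from less RNA per cell.

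Mast cells depend on GATA2. Of 9 mast cell markers Hdc alone passed, lower with Men1 siRNA (limma adjusted p = 0.0405). Cpa3, Fcer1a, Mcpt4, Ms4a2 and Tpsab1 lay under 100 on all 4 arrays. Cma1 and Tpsb2 each reached 100 on a single array, at 126 on scramble siRNA replicate 1 and 134 on Men1 siRNA replicate 1. The sum of the list, 7637 to 18717 against 2180 to 3030, rested on Hdc and Kit. Neuronal markers had sums of 87324 to 104394 with scramble siRNA and 126059 to 130373 with Men1 siRNA, with 0 of 11 past the threshold and all 11 positive in log2 change. The groups did not overlap in the sum of any of the 10 marker lists, so this sets none of them apart. Among single genes, 47.5% had groups that did not overlap. Leukocyte markers had 0 of 10 past the threshold, 5 positive and 5 negative in log2 change, and sums of 8983 to 12101 against 5402 to 7727. Cardiac and smooth muscle markers had 0 of 8 past it, 3 positive and 5 negative, with a median of −0.24. Their sums were 4413 to 7767 against 12508 to 16724 and rested largely on Acta2, at 2962 and 5405 against 10469 and 14207. Des of that list read 419 and 454 against 61.9 and 86.9.

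**Figure D2:**
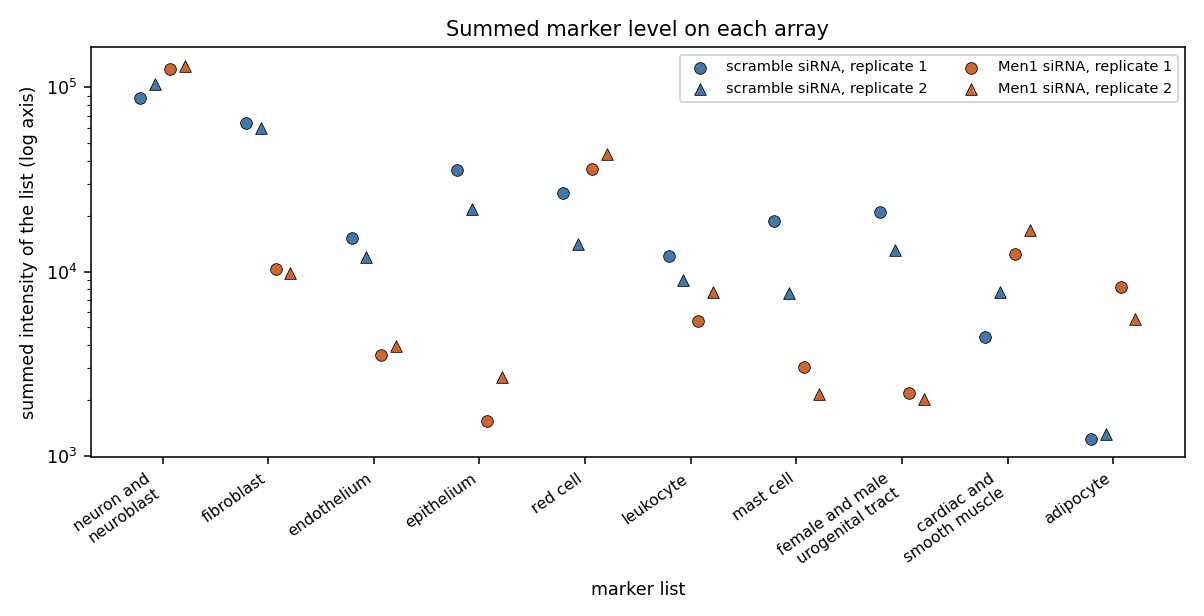
Summed intensity of each marker list (horizontal axis) on each of the 4 arrays, on a log axis, with scramble siRNA arrays in blue and Men1 siRNA arrays in orange. The epithelial sum is 21899 to 35458 on the scramble siRNA arrays and 1556 to 2664 on the Men1 siRNA arrays, while the neuronal sum is 87324 to 104394 and 126059 to 130373.

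Gata3 encodes a factor of T cells, sympathetic neurons, luminal epithelium and the nephric duct. At its brighter target (gene ID 14462, chr2:9778704-9800227 on MM9) it read 259 and 403 in scramble siRNA cells and 73.2 and 114 in Men1 siRNA cells, so that the groups did not overlap and Men1 siRNA was lower. The log2 change was −1.83 ± 0.40 (SE, n = 2 per group; limma adjusted p = 0.162, unadjusted p = 0.00482), and its size is less certain because 1 Men1 siRNA array was under 100. The second Gata3 target, with nearly the same span (chr2:9778706-9800227), read 35.8 and 79.1 against 75.5 and 46.7, under 100 throughout and with overlapping groups. As the mean of both targets the gene had −0.83 (adjusted p = 0.392), less than at the brighter target alone.

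The named genes nearest to Gata3 over the 4 arrays were Prnd, Postn, Tuft1, Tns4 and Ddx11, at distances from 0.34 to 0.51 log2 units. Postn, which encodes the matrix protein periostin, read 254 and 337 in scramble siRNA cells and 76.1 and 132 in Men1 siRNA cells. None of the 5 passed the threshold, with limma adjusted p-values from 0.126 to 0.21.

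Gata1, the master factor of red cells, megakaryocytes and mast cells, had a single target (chrX:7536390-7544991 on MM9) that read 71.9 and 55.5 in scramble siRNA cells and 35.7 and 66.5 in Men1 siRNA cells. It was not well above background on any array, the groups overlapped, and it did not pass (limma adjusted p = 0.72).

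Gata4, a factor of heart, gonad and gut, had a target (chr14:63859372-63890529 on MM9) that read 81.3 and 31.2 in scramble siRNA cells and 40.5 and 160 in Men1 siRNA cells. A single Men1 siRNA array, replicate 2, was above 100, the groups overlapped and the gene did not pass (limma adjusted p = 0.73). Its other target lay between 25.1 and 31.4 on all 4 arrays, below the random probes.

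Gata5, a factor of endocardium and gut, differed between its targets. The brighter target (chr2:180061422-180069259 on MM9) read 245 and 117 in scramble siRNA cells and 82.9 and 55.6 in Men1 siRNA cells, at least 1.69-fold lower with no overlap. The fitted log2 change was −1.32 ± 0.47 (SE, n = 2 per group), which did not pass (limma adjusted p = 0.31, unadjusted p = 0.0337). Its other target has the same annotated span and read 32 and 56.7 against 105 and 47.7, with 1 Men1 siRNA array above 100 and overlapping groups. As the mean of both targets Gata5 had −0.29 (adjusted p = 0.757).

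Gata6, a factor of extraembryonic and definitive endoderm, read 38.3 and 65 in scramble siRNA cells and 45.8 and 37.6 in Men1 siRNA cells at its single target, under 100 throughout (limma adjusted p = 0.79). Zfpm2, the cofactor of GATA4 and GATA6 in heart and gonad, had 3 targets, all between 31.1 and 88.4. At the brightest of them (chr15:40486687-40936132 on MM9) it read 38.3 and 44.9 against 76.3 and 88.4, higher on both Men1 siRNA arrays but below 100, without passing (limma adjusted p = 0.276). Because both groups lay under 100, no fold is given for Gata1, Gata6 or Zfpm2.

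**Figure D3:**
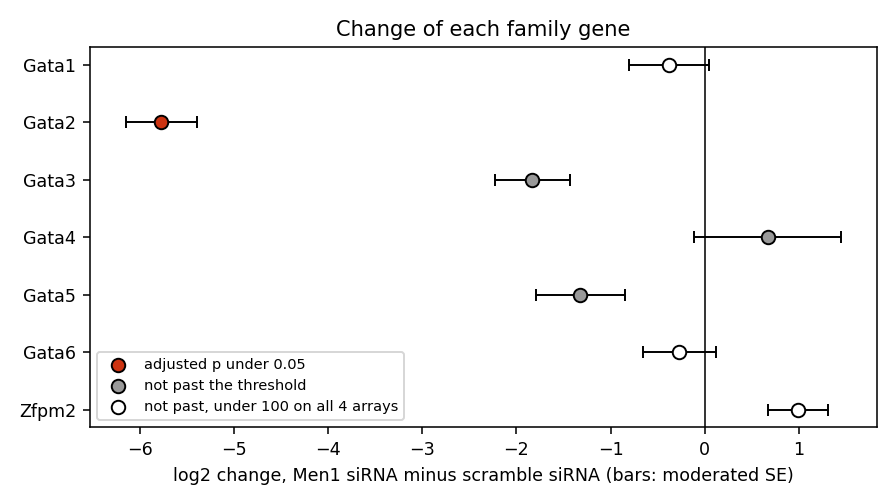
Log2 change (Men1 siRNA minus scramble siRNA, horizontal axis) of each of the 7 family genes at its brightest target, with the moderated SE as bars, n = 2 arrays per group. Gata2 at −5.77 is the point past the threshold, and the open points of Gata1, Gata6 and Zfpm2 mark genes under 100 on all 4 arrays.

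The proteins with which GATA factors act on DNA were described from a list of 24 genes, of which 21 were measured. In limma 0 passed, and the list median was 0.33. At an unadjusted p under 0.05, 3 of the 21 were higher and 0 lower, a share near the 14.2% of all genes with such a p in either direction. Lyl1, a basic helix-loop-helix factor that works with GATA2, read 256 and 342 in scramble siRNA cells and 739 and 875 in Men1 siRNA cells (log2 change 1.44 ± 0.33, limma adjusted p = 0.178). Its relative Tal1 read 125 and 181 against 246 and 443 (adjusted p = 0.328). Both were higher on both Men1 siRNA arrays, opposite in direction to Gata2. The bridging proteins Ldb1, at 12341 and 10112 against 7607 and 8319, and Lmo4, at 3950 and 5905 against 8182 and 5506, did not pass (adjusted p = 0.533 and 0.62), and the groups overlapped for Lmo4.

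The corepressors that Zfpm proteins recruit were measured for 14 of 15 genes. In limma 0 passed, 1 had an unadjusted p under 0.05 (14.2% of all genes did), 11 were negative, and the median was −0.37. Ctbp2 read 5680 and 4098 in scramble siRNA cells and 2657 and 2113 in Men1 siRNA cells (log2 change −1.03 ± 0.35, limma adjusted p = 0.293), and its paralogue Ctbp1 read 8606 and 9478 against 8109 and 8038. The NuRD helicase gene Chd4 read 7415 and 5833 against 4911 and 4299 (adjusted p = 0.521). The deacetylase gene Hdac1 read 5608 and 4214 against 2963 and 2907 (adjusted p = 0.392). These 4 genes were well above background in both groups, whereas Hdac2 of the same list lay between 40.6 and 51.4 on all 4 arrays, under 100 as Zfpm2 did.

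**Figure D4:**
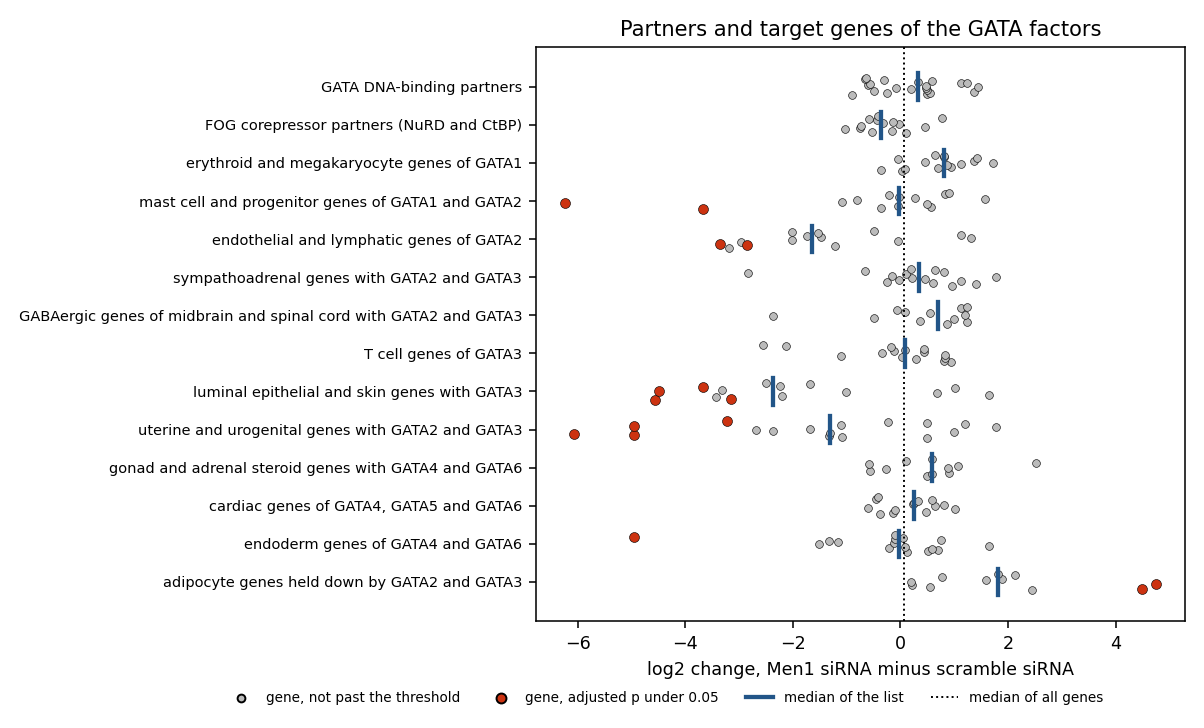
Log2 change (Men1 siRNA minus scramble siRNA, horizontal axis) of each measured gene in 14 lists of GATA partners and target genes, with genes past the threshold in red, the list median as a blue bar and the median of all genes, 0.06, dotted. Medians run from −2.36 for luminal epithelial and skin genes to 1.81 for adipocyte genes.

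Among 15 measured erythroid and megakaryocyte genes, the classical targets of GATA1, 0 passed in limma, 4 had an unadjusted p under 0.05 (14.2% of all genes did), 13 were positive and the median was 0.80, or 0.29 with genes under 100 in a whole group at their bound. The globin gene Hbb-b1 read 12325 and 7273 in scramble siRNA cells and 18273 and 23472 in Men1 siRNA cells (limma adjusted p = 0.303), and Hba-a1 read 12491 and 5462 against 14494 and 15453 (adjusted p = 0.466). Globin genes have near-identical copies that may share probes, so their single values are uncertain. The heme synthesis gene Alas2 read 626 and 367 against 421 and 563. Globins were therefore far above background on arrays where Gata1 was not. The erythroid factor Klf1, at 23.8 and 64.5 against 108 and 93.6, reached 100 on a single array (adjusted p = 0.34). The summed red cell markers were 14050 to 26809 with scramble siRNA and 35823 to 43302 with Men1 siRNA, with Epb42 and Hemgn under 100 throughout.

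Of 14 mast cell and progenitor genes linked to GATA1 and GATA2, 2 fell, 0 rose and 12 did not pass. The share of all genes called lower was 0.352%, and the list median was −0.03. Cd34, a surface protein of progenitors and endothelium, read 4099 and 2958 in scramble siRNA cells and 266 and 287 in Men1 siRNA cells, which is −3.66 ± 0.33 in log2 (limma adjusted p = 0.0347). Hdc, the histidine decarboxylase of mast cells and of some epithelia, read 14235 and 4306 against 143 and 75.6 (adjusted p = 0.0405). Kit, the stem cell factor receptor, read 4137 and 3068 against 2472 and 1672 without passing (adjusted p = 0.399). The list held 7 genes under 100 on all 4 arrays.

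Of 14 measured endothelial and lymphatic genes linked to GATA2, 2 fell, 0 rose and 12 did not pass. The list median was −1.64, and 0.352% of all genes were called lower. Eng, a TGF-beta coreceptor, read 1077 and 877 in scramble siRNA cells and 99.3 and 90.2 in Men1 siRNA cells, at least 9.72-fold lower (limma adjusted p = 0.0356). Emcn, a sialomucin of veins and capillaries, was at least 4.5-fold lower (adjusted p = 0.0452). Cdh5, the endothelial cadherin, read 2030 and 1416 against 229 and 153 and missed the threshold (adjusted p = 0.0521). Of the lymphatic genes, 2 were higher without passing: Prox1 read 147 and 299 against 514 and 404 (adjusted p = 0.345), and Lyve1 read 58.8 and 80.6 against 122 and 239 (adjusted p = 0.291). The integrin gene Itga9, at 321 and 81.2 against 79.5 and 311, had overlapping groups.

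The sympathoadrenal genes that GATA2 and GATA3 accompany were measured for 16 of 19. In limma 0 passed, 3 were higher and 1 lower at an unadjusted p under 0.05, which 14.2% of all genes had, and the median was 0.34. Ret, a growth factor receptor of the lineage, read 80.2 and 54.4 in scramble siRNA cells and 212 and 243 in Men1 siRNA cells, at least 2.27-fold higher (limma adjusted p = 0.132). Slc6a2, the noradrenaline transporter, read 1163 and 294 against 87.5 and 77.2, at least 5.85-fold lower (adjusted p = 0.182). Insm1, a zinc finger factor of neuroendocrine cells, read 204 and 260 against 481 and 524 (adjusted p = 0.241). Hand1 and Slc18a2 were under 100 on all 4 arrays.

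Gata2 also selects the GABAergic fate in the midbrain, with Tal1, Tal2 and Gata3. Of 12 genes of that list 0 passed in limma, 3 were higher and 1 lower at an unadjusted p under 0.05, which 14.2% of all genes had, and the median was 0.70. The GABA synthesis genes were higher on both Men1 siRNA arrays without passing: Gad2 read 360 and 642 in scramble siRNA cells and 1082 and 1169 in Men1 siRNA cells (limma adjusted p = 0.276), and Gad1 read 1004 and 1401 against 2352 and 1978 (adjusted p = 0.348). Pax2, which is also a gene of kidney and genital ducts, read 3022 and 1389 against 392 and 404 (adjusted p = 0.127).

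For Gata3, T cell genes and epithelial genes were described apart. Of 15 measured T cell genes 0 passed in limma, with a median of 0.08 and 2 lower at an unadjusted p under 0.05, a share near the 14.2% of all genes. Those 2 were Tcf7, at 745 and 733 in scramble siRNA cells and 200 and 142 in Men1 siRNA cells (limma adjusted p = 0.088), and Zbtb7b, at 2389 and 799 against 246 and 225 (adjusted p = 0.161). Of 14 luminal epithelial and skin genes 4 fell (0.352% of all genes were called lower), 0 rose and 10 did not pass, with a median of −2.36. Those that fell were the keratin genes Krt8, from 1905 and 1977 to 135 and 171, and Krt18, from 9975 and 6196 to 270 and 458, with the cadherin gene Cdh1 and the Ets factor gene Elf5. Their limma adjusted p-values ran from 0.0346 to 0.0408, and Elf5 was at least 5.15-fold lower. The oestrogen receptor gene Esr1, a partner of GATA3 in breast epithelium, read 589 and 678 against 158 and 118 (adjusted p = 0.0846).

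With a median of −1.30, 17 uterine and urogenital genes were measured, and 0.352% of all genes were called lower. Of the 17, 0 rose, 13 did not pass and 4 fell. They were Hoxa10, Hoxa11, Sox17 and Wt1, a factor of kidney and gonad that read 1441 and 992 in scramble siRNA cells and 110 and 149 in Men1 siRNA cells (log2 change −3.22 ± 0.37, limma adjusted p = 0.0452). Hoxa11 read 3899 and 2305 against 44 and 45.1, at least 30-fold lower (adjusted p = 0.0275). The progesterone receptor gene Pgr, which GATA2 regulates in the uterus, read 233 and 300 against 48.5 and 138 without passing (adjusted p = 0.283). This list and the urogenital markers share members, so the counts of the lists are not independent.

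The lists of Gata4, Gata5 and Gata6 held a single call. Gata4 and Gata6 themselves were at or near background, while Gata5 read 245 and 117 in scramble siRNA cells at its brighter target. Of 11 measured gonad and adrenal genes 0 passed in limma, with a median of 0.58 and 2 higher at an unadjusted p under 0.05, a share near the 14.2% of all genes. Of 14 cardiac genes 0 passed and 0 had an unadjusted p under 0.05, with a median of 0.25 and the natriuretic peptide genes Nppa and Nppb under 100 on all 4 arrays. Of 16 measured endoderm genes Sox17 fell (0.352% of all genes were called lower) and 15 did not pass, with a median of −0.02. The liver genes Afp, Alb and Hnf4a of that list were under 100 throughout. Others of the list were not: Ttr read 1820 and 2556 in scramble siRNA cells and 2134 and 1906 in Men1 siRNA cells. Apoa1 and Apoa2 reached 100 on 2 and 3 arrays.

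GATA2 and GATA3 are known to hold back the conversion of preadipocytes into fat cells. Of 11 measured adipocyte genes 2 rose, 0 fell and 9 did not pass, where 0.0372% of all genes were called higher. All 11 were positive, with a median of 1.81. The list was chosen with earlier results of these data known, so these counts are no test of a link to GATA2 or GATA3. Fabp4, the adipocyte fatty acid binding protein, read 107 and 87.2 in scramble siRNA cells and 2985 and 2250 in Men1 siRNA cells (limma adjusted p = 0.0281), and Car3, a carbonic anhydrase of fat and muscle, read 121 and 64 against 2300 and 1677 (adjusted p = 0.0364). Pparg, the fat cell master regulator, read 68 and 58.7 against 464 and 164, at least 2.76-fold higher without passing (adjusted p = 0.207). Retn read 87 and 102 against 984 and 111, so its difference came from Men1 siRNA replicate 1. Summed adipocyte markers were 1238 to 1311 with scramble siRNA and 5544 to 8268 with Men1 siRNA, and whether they had a part in any family gene's value was not tested.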

How the data were processed

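Gene expression was measured on 4 arrays, 2 per group. Per the file headers, the deposited intensities are linear RMA (robust multi-array average) summaries of usually 3 probes per target, annotated on MM9. The background correction was not given in the sources used here. Format and labelling protocol are of NimbleGen arrays, although Agilent is named in the series text. The other deposited column, a standard error per target on an unstated scale, was not used. The authors' value table holds intensities of the 20620 targets that reach 100 on all 4 arrays, and no family target. Its scramble siRNA columns differ from the array files under the same labels.

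Symbols were updated through NCBI gene IDs (21583 of 24203 matched GRCm38.p6 RefSeq). The test used log2 intensity without a pseudocount, and a gene was represented by its target of highest mean log2 intensity. The test was limma 3.58.1 in R 4.3.3 (lmFit and eBayes, group as the only term, two-sided), adjusted by the Benjamini-Hochberg method over all 24171 genes, or over all 44170 targets. A fold is "at least" N where both arrays of the dimmer group lay under 100, which then stood for them. Tested on simulated data for this comparison (24171 genes, 5 runs), it found 0% of the genes given a change of 1 log2 unit, 2.4% at 2, 74.4% at 4 and 92% at 6. Of 455 calls in these runs, 33 were of genes given no change. The simulated spread did not depend on a gene's level.

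The text names all family genes, Men1, the 5 genes nearest to Gata2 and to Gata3, and from each list the members past the threshold and others among the 4 with the smallest p. Further list members, such as Ldb1, Lmo4, Chd4, Ctbp1, Alas2, Hba-a1, Kit, Prox1, Lyve1, Esr1, Pgr, Pparg and Retn, were named for their known role after their values were seen. Some list members are not reported here by name. Members and lists were chosen with earlier results of these data known. Same-numbered arrays deviated from their group means with a correlation of −0.175 across genes, so the numbers were not taken to pair them. Replicate numbers are those of the labels, and the image names inside both Men1 siRNA files carry the number 2. Alternatives were a replicate block, each array left out, other normalizations, priors, filters, a pseudocount, a floor, target means and the value table. Files were read in Python 3.11.15 with pandas 2.3.3.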

Additional observations from a re-analysis of the deposited data

How the results depend on the processing

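Gata2 kept its direction in every alternative run, from −6.16 to −5.21 in log2 change, and stayed past the threshold in 9 of 15. Without 1 array at a time its adjusted p was 0.0768 to 0.256, and 0 of the 24171 genes, 0 family genes, 0 family targets and 0 list genes passed in limma, which at a single array in a group bears on all genes and not on Gata2 alone, while 2105 to 3357 genes had an unadjusted p under 0.05. With the replicate block Gata2 kept its call (adjusted p = 0.0392), and 62 genes were lower and 7 higher. With crossed replicate numbers as a block, chosen after the data were seen, 0 genes passed (3980 at an unadjusted p under 0.05), 0 list genes and 0 family genes, Gata2 having an adjusted p of 0.0523, whereas both of its targets passed in the fit of all targets. With values under 100 set to 100, 8 genes, 1 list gene, 0 family genes and 0 family targets passed. At an adjusted p under 0.01 the counts were 0 for all genes, the family genes and the family targets. More genes passed with a trended prior (711, of which 28 in the lists, against 94 and 14), a pseudocount of 32 (252 and 22) or a filter on dim genes (289 and 22), and 418 in the value table. The cause of these shifts was not tested.

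Gata3, Gata5 and Zfpm2 kept their sign or went to 0, and none passed. Genes at background turned sign: Gata1 had 0.07 without Men1 siRNA replicate 1 (−0.82 at the other extreme), Gata4 −0.02 without scramble siRNA replicate 2 and −0.31 without Men1 siRNA replicate 2 (1.66 at the other extreme), and Gata6 0.12 without scramble siRNA replicate 2 (−0.65 at the other extreme). Signal over background limits every family gene: Gata2, Gata3 and Gata5 reached 100 on at least 2 arrays but had 1 or both Men1 siRNA arrays under it, and the others did not reach it on 2 arrays. With values under 100 set to 100, Gata5 had −0.76 in place of −1.32.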

Other observations

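Nr5a1 encodes a partner of GATA4 in gonad and adrenal gland. Gata4 at its brighter target and Nr5a1 both had their highest value on the array of Men1 siRNA replicate 2. That Gata4 target read 160 there and at most 81.3 on the other 3 arrays. The other Gata4 target had its lowest value there, 25.1, and read 26.8, 30.8 and 31.4 on the other arrays. Nr5a1 read 664 there and 31.7, 64 and 101 on the other arrays. Neither gene passed in limma (adjusted p = 0.73 and 0.316). The pair was chosen after its values were seen. The steroid synthesis genes Star and Cyp11a1, which both factors activate, read 79.1 and 155 on that array, within the range of the other 3 (58.8 to 123 and 118 to 299).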
